A study of Mus musculus with 6 samples.

Results

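The superoxide dismutases, catalase and the glutathione peroxidases were examined in C2C12 myotubes after Dj1 knockdown. All probes listed in the deposited report as SOD1, SOD2, SOD3, CAT, GPX1, GPX3, GPX4, GPX7 or GPX8 were taken, whatever their signal, which gave 14 probes of 9 genes among the 45281 probes of the array. C2C12 is a mouse myoblast line whose cells fuse into multinucleated myotubes when serum is lowered. Myoblasts received 60 nM of either a scramble siRNA or an siRNA against DJ-1 (1 siRNA per group), were switched to differentiation medium 48 h later and were harvested as myotubes after 4 days. RNA of 3 samples per group was hybridized to 6 arrays of 1 Illumina Mouse WG-6 chip. The labels number the samples of each group from 1 to 3 and do not say that they came from separate cultures, so that p-values measure only the spread between these samples, which may be technical.

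Superoxide dismutases turn superoxide into hydrogen peroxide and oxygen, with Sod1 mainly in the cytosol, Sod2 in the mitochondrial matrix and Sod3 outside the cell. Catalase, mostly in peroxisomes, breaks hydrogen peroxide down to water and oxygen, and glutathione peroxidases reduce peroxides to water or alcohols at the expense of glutathione. In muscle, mitochondria and oxidases of the membrane form superoxide during rest and contraction, and these enzymes set how long it and the peroxide made from it last.

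DJ-1, the product of Park7, was examined first because its mRNA was the target of the siRNA. Signal of its probe (ILMN_2728754) was 12020, 10900.4 and 12251 in scramble replicates 1 to 3 and 5935, 6586 and 4234 in siDJ-1 replicates 1 to 3. All siDJ-1 arrays lay below all scramble arrays. After background correction and quantile normalization the mean log2 signal was 13.53 ± 0.14 (SD, n = 3) and 12.37 ± 0.19 (SD, n = 3). Its log2 change of siDJ-1 against scramble was -1.16 (95% confidence interval -1.49 to -0.84, adjusted p = 0.00344, limma), which left 44.7% of the scramble signal. For 3 arrays against 3 the smallest p of a two-sided exact permutation test is 0.1.

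Of the 14 probes, 10 were detected on all 6 arrays (detection p under 0.05), 1 on the 3 siDJ-1 arrays only, and 3 on no array. Tested were the 11 that reached this on 3 or more arrays. At an adjusted p under 0.05 (limma, adjusted over 17890 tested probes), 5 of the 11 differed between the groups, where 30.1% of all tested probes did. Higher after Dj1 knockdown were 1 probe each of Sod1, Cat and Gpx8, so 3 of 11 beside 16.5% of all tested probes, and lower were Sod3 and Gpx1, so 2 of 11 beside 13.6%. The Cat probe among these passed the filter only through the siDJ-1 arrays. Among the 10 probes detected on all arrays, 2 were higher and 2 were lower, with a median log2 fold change of 0.11, and 31.5% of all probes so detected differed. For 9 of the 11 probes, and for 48.5% of all tested probes, normalized signals did not overlap between groups. With any 1 array but scramble replicate 1 left out, 3 of the 11 were called, where 2564 to 4022 of all 17890 tested probes were. These counts describe the listed probes, and no test set them against the rest of the array.

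**Figure D1:**
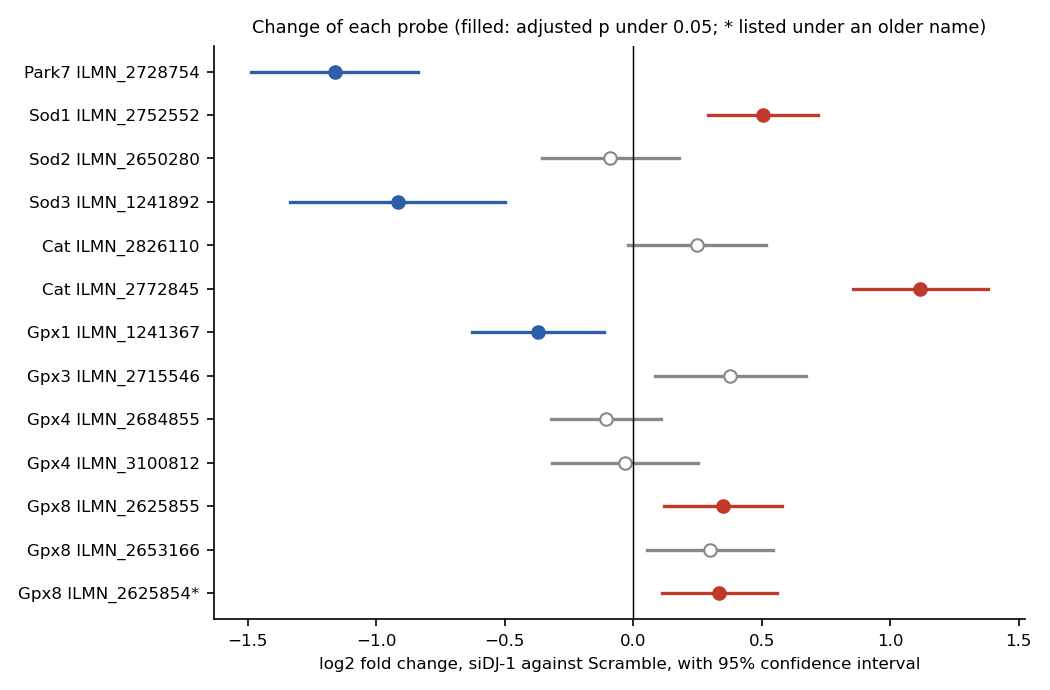
Log2 fold change of siDJ-1 against scramble arrays with its 95% confidence interval, for Park7, each tested probe of the enzymes and a further Gpx8 probe listed under an older name (asterisk); filled points had an adjusted p under 0.05. Sod1 (0.50) and Gpx8 (0.35) lie to the right of 0, and Sod3 (-0.92) and Gpx1 (-0.37) to the left; the value of Cat ILMN_2772845, undetected in scramble myotubes, is a fitted one.

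RefSeq promoters (250 bases before to 50 bases after the start of transcription, build GRCm38.p6) were matched for 8 of the 9 genes, all but Sod3, with 11 promoters. They were searched on both strands for TGACNNNGC, the core letters of the antioxidant response element, and for ACGTG, the core letters of the hypoxia response element. Of the 32851 promoters in the table, 12.4% held TGACNNNGC and 19.6% held ACGTG. The promoters of Sod1, Gpx8 and Gpx1 are shown because their probes differed between the groups and they are the ones of the set that held either motif. They are printed 5' to 3' on the strand of the gene, with the matches in capitals. Sod1 lies at chr16:90220512-90220811 (plus strand), Gpx8 at chr13:113046339-113046638 (minus strand) and Gpx1 at chr9:108338830-108339129 (plus strand).
Sod1: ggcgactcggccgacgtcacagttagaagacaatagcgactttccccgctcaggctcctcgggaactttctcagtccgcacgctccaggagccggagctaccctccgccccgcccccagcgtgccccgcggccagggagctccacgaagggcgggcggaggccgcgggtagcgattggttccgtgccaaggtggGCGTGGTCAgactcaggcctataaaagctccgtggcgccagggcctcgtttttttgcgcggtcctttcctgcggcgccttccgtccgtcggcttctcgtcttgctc
Gpx8: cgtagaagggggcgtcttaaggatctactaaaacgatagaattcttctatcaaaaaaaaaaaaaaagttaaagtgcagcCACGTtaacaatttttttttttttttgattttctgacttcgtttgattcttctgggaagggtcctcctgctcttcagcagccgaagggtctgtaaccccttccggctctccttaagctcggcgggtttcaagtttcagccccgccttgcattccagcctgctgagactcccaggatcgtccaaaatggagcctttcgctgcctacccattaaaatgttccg
Gpx1: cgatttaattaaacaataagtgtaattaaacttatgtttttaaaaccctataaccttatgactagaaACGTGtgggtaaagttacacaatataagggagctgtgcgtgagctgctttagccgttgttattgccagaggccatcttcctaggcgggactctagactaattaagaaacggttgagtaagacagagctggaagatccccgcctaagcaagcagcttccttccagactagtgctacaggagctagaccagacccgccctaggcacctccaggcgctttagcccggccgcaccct
In Sod1 the capitals mark TGACNNNGC read on the opposite strand, 56 bases before the start. In Gpx8 they mark ACGTG on the opposite strand 171 bases before the start, and in Gpx1 ACGTG on the strand of the gene 183 bases before it. The other promoters of the set, that of Cat among them, held 0 matches to either. A match says only that these letters are present, and ACGTG is also part of the longer E-box CACGTG. A further planned pattern, of the NF-kappaB type, was searched as well and is not marked. It was held by 50.8% of all promoters. In the set it was held by promoters of Cat, Gpx1, Gpx3, Gpx4, Gpx7, Sod1 and Sod2, and not by that of Gpx8.

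Sod1, the copper and zinc dismutase of the cytosol, was higher after Dj1 knockdown. Its probe ILMN_2752552 gave signals of 6700.4, 6832 and 6742 in scramble replicates 1 to 3 and of 9532, 10459 and 9204 in siDJ-1 replicates 1 to 3. The scramble arrays lay close together, and every siDJ-1 array lay above all of them. The normalized log2 means were 12.71 ± 0.03 (SD, n = 3) for scramble and 13.22 ± 0.05 (SD, n = 3) for siDJ-1 myotubes. The difference was 0.50 (95% confidence interval 0.29 to 0.72, adjusted p = 0.0094, limma), or 1.42-fold (1.22 to 1.64). It was called under all 15 alternatives that gave it a value, between 0.48 and 0.64. A further probe listed under SOD1 (ILMN_1236313) was detected on no array, with signals from 141.4 to 161.8. Ccs, which loads copper into Sod1, gave -0.051 (adjusted p = 0.752, limma), a value above 0 with either 75th percentile shift.

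Sod2, the manganese dismutase of mitochondria, did not pass the threshold. Its probe (ILMN_2650280) gave signals of 9275, 8716 and 8055 for scramble against 8557, 9906 and 6859 for siDJ-1 replicates 1 to 3. The siDJ-1 arrays held both the highest and the lowest of these, so that the groups overlapped. The log2 fold change was -0.089 (95% confidence interval -0.36 to 0.18, adjusted p = 0.581, limma), and its sign turned when background-corrected arrays were shifted to a common 75th percentile instead (0.054).

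Sod3, the secreted dismutase that binds to the extracellular matrix, was lower after Dj1 knockdown. Its dim probe (ILMN_1241892) was detected on all arrays, with signals of 319, 331 and 288 in scramble replicates 1 to 3 and of 211, 268 and 197 in siDJ-1 replicates 1 to 3. All siDJ-1 arrays lay below all scramble arrays, with siDJ-1 replicate 2 nearest to them. Normalized log2 signal was 7.44 ± 0.07 (SD, n = 3) and 6.53 ± 0.34 (SD, n = 3), so that the siDJ-1 arrays spread more widely. The log2 fold change was -0.92 (95% confidence interval -1.34 to -0.50, adjusted p = 0.0116, limma), which left 53.0% of the scramble signal (39.6% to 70.8%). Its size depended on the background correction, since it was -0.44 without one (adjusted p = 0.00308). It was called under all 15 alternatives that gave it a value, with adjusted p from 0.00297 to 0.0478.

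**Figure D2:**
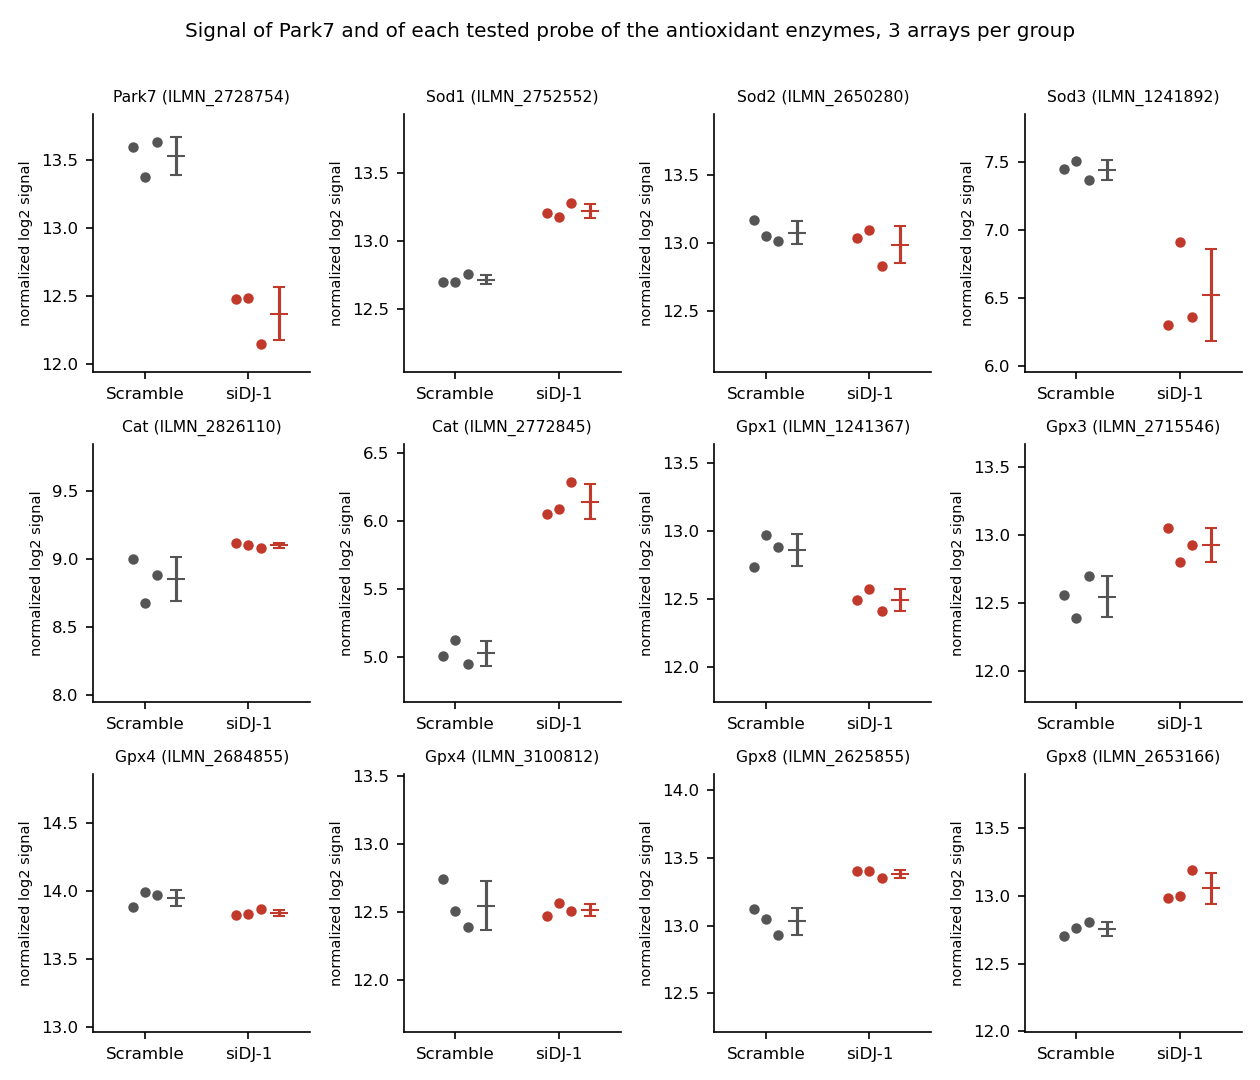
Normalized log2 signal of Park7 and of the 11 tested probes on each array (points, replicates 1 to 3 from left to right), with mean and SD at the right of each group; every panel spans the same range of log2 units. For Sod1, Sod3, Gpx1, Gpx3, both Gpx8 probes, both Cat probes and Gpx4 ILMN_2684855 the groups do not overlap, and for Sod2 and Gpx4 ILMN_3100812 they do.

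Catalase was read by 2 probes, 1 of which was called. The brighter one (ILMN_2826110) was detected on all arrays, with signals of 667.5, 571 and 592 for scramble against 683, 742 and 587 for siDJ-1 replicates 1 to 3. These signals overlapped, while after normalization the groups did not, with 8.85 ± 0.16 (SD, n = 3) and 9.10 ± 0.02 (SD, n = 3). Its log2 fold change was 0.25 (95% confidence interval -0.021 to 0.52, adjusted p = 0.142, limma), and it was called under 0 of 15 alternatives.

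The dim Cat probe (ILMN_2772845) gave 158.9, 170.2 and 147.8 for scramble against 197.8, 210.3 and 193.6 for siDJ-1 replicates 1 to 3. It was detected on all 3 siDJ-1 arrays and on 0 of 3 scramble arrays. Its fitted change was called (adjusted p = 0.00291, limma), but its size depended on the background correction, with 1.12 on the log2 scale and 0.36 without one, so that no fold is given. The probe was tested only through the group in which it was high, so that its call is no support for a change of catalase. The lowest detected log2 signal was 5.60, 5.53 and 5.42 for scramble against 5.36, 5.34 and 5.39 for siDJ-1 replicates 1 to 3, and the part of this difference in the detection was not tested. The fitted changes of the 2 Cat probes differed by 0.87 (95% confidence interval 0.47 to 1.27, adjusted p = 0.0536, limma), and by 0.17 without background correction. This difference rests on the undetected scramble signals of the dim probe and is likewise no support.

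Gpx1, the selenium-dependent peroxidase of cytosol and mitochondria, was lower after Dj1 knockdown. Its probe (ILMN_1241367) gave signals of 6892, 8163 and 7344 in scramble replicates 1 to 3 and of 6000.4, 6871 and 5090.5 in siDJ-1 replicates 1 to 3. The groups did not overlap, although siDJ-1 replicate 2 came close to scramble replicate 1. Normalized log2 signal was 12.86 ± 0.12 (SD, n = 3) and 12.49 ± 0.08 (SD, n = 3), a log2 fold change of -0.37 (95% confidence interval -0.63 to -0.12, adjusted p = 0.0411, limma). This call was lost when background-corrected arrays were shifted to the 75th percentile (-0.22, adjusted p = 0.179), without the filter on dim probes (adjusted p = 0.0934), with the replicate number as a block (adjusted p = 0.0685), and when scramble replicate 2 or 3 (-0.32 and -0.36) or siDJ-1 replicate 1, 2 or 3 (-0.37, -0.41 and -0.33) was left out, where the adjusted p lay between 0.0655 and 0.124. Over all 15 alternatives it ran from 0.00165 to 0.179.

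Gpx3, the peroxidase secreted into plasma and the matrix, gave signals of 6141, 5550.3 and 6492.5 for scramble against 8637, 8175 and 7377 for siDJ-1 replicates 1 to 3 (ILMN_2715546). Every siDJ-1 array lay above every scramble array. Normalized log2 signal was 12.55 ± 0.15 (SD, n = 3) and 12.93 ± 0.13 (SD, n = 3). The log2 fold change of 0.38 (95% confidence interval 0.085 to 0.67) missed the threshold (adjusted p = 0.0584, limma). It passed under 7 of 15 alternatives, such as without background correction (adjusted p = 0.0132) and with array weights (0.42, adjusted p = 0.039), and over all of them the adjusted p ran from 0.00337 to 0.185.

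Gpx4, which reduces lipid peroxides within membranes, had 2 detected probes that did not pass the threshold. ILMN_2684855 gave signals from 14406 to 16546 on the scramble arrays and from 14099 to 16633 on the siDJ-1 arrays, with a log2 fold change of -0.11 (95% confidence interval -0.32 to 0.11, adjusted p = 0.407, limma). ILMN_3100812 gave signals from 5270 to 6912 and from 5400 to 6834, with a log2 fold change of -0.032 (95% confidence interval -0.32 to 0.25, adjusted p = 0.863, limma). Signals of the groups overlapped for both, while after normalization those of ILMN_2684855 did not. Both fold changes turned positive with either 75th percentile shift. The changes of the 2 probes differed by 0.075 (95% confidence interval -0.30 to 0.45, adjusted p = 0.872, limma), where 2.48% of 6419 pairs of probes of 1 gene differed at an adjusted p under 0.05. A further Gpx4 probe (ILMN_3027761) and the only Gpx7 probe (ILMN_2724294) were detected on no array. Gpx7, a peroxidase of the endoplasmic reticulum, thus had no measured level in these myotubes, and its signals ran from 137.1 to 172 over the 6 arrays.

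Gpx8, a membrane-bound peroxidase of the endoplasmic reticulum, was higher after Dj1 knockdown on 1 of its 2 listed probes. ILMN_2625855 gave signals of 8945, 8670.4 and 7589 in scramble replicates 1 to 3 and of 11191, 12099 and 9870.3 in siDJ-1 replicates 1 to 3. All siDJ-1 arrays lay above all scramble arrays. Normalized log2 signal was 13.03 ± 0.10 (SD, n = 3) and 13.38 ± 0.03 (SD, n = 3), a log2 fold change of 0.35 (95% confidence interval 0.12 to 0.58, adjusted p = 0.0366, limma). ILMN_2653166 gave 6743, 7082.5 and 6971 for scramble against 8256, 9275 and 8590.2 for siDJ-1 replicates 1 to 3, and the groups did not overlap here either. Its log2 fold change was 0.30 (95% confidence interval 0.055 to 0.54, adjusted p = 0.0676, limma), called under 5 of 15 alternatives with adjusted p from 0.00456 to 0.185. The changes of the 2 probes differed by 0.051 (95% confidence interval -0.30 to 0.41, adjusted p = 0.91, limma).

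A further probe of Gpx8 (ILMN_2625854) is listed in the file under an older RIKEN name and was found through its gene number after the set had been chosen. Its log2 fold change was 0.34 (95% confidence interval 0.11 to 0.56, adjusted p = 0.0371, limma), and its groups did not overlap. The call of ILMN_2625855 was lost without the filter on dim probes (adjusted p = 0.0843), with the replicate number as a block (adjusted p = 0.0702) and when scramble replicate 2 or 3 (0.36 and 0.30) or siDJ-1 replicate 1, 2 or 3 (0.34, 0.34 and 0.37) was left out, with adjusted p from 0.0781 to 0.12, and over all 15 alternatives it ran from 0.000943 to 0.12. That of ILMN_2625854 was lost under 8 of 15 alternatives, among them leaving out any 1 of the 6 arrays (0.30 to 0.37, adjusted p up to 0.136).

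**Figure D3:**
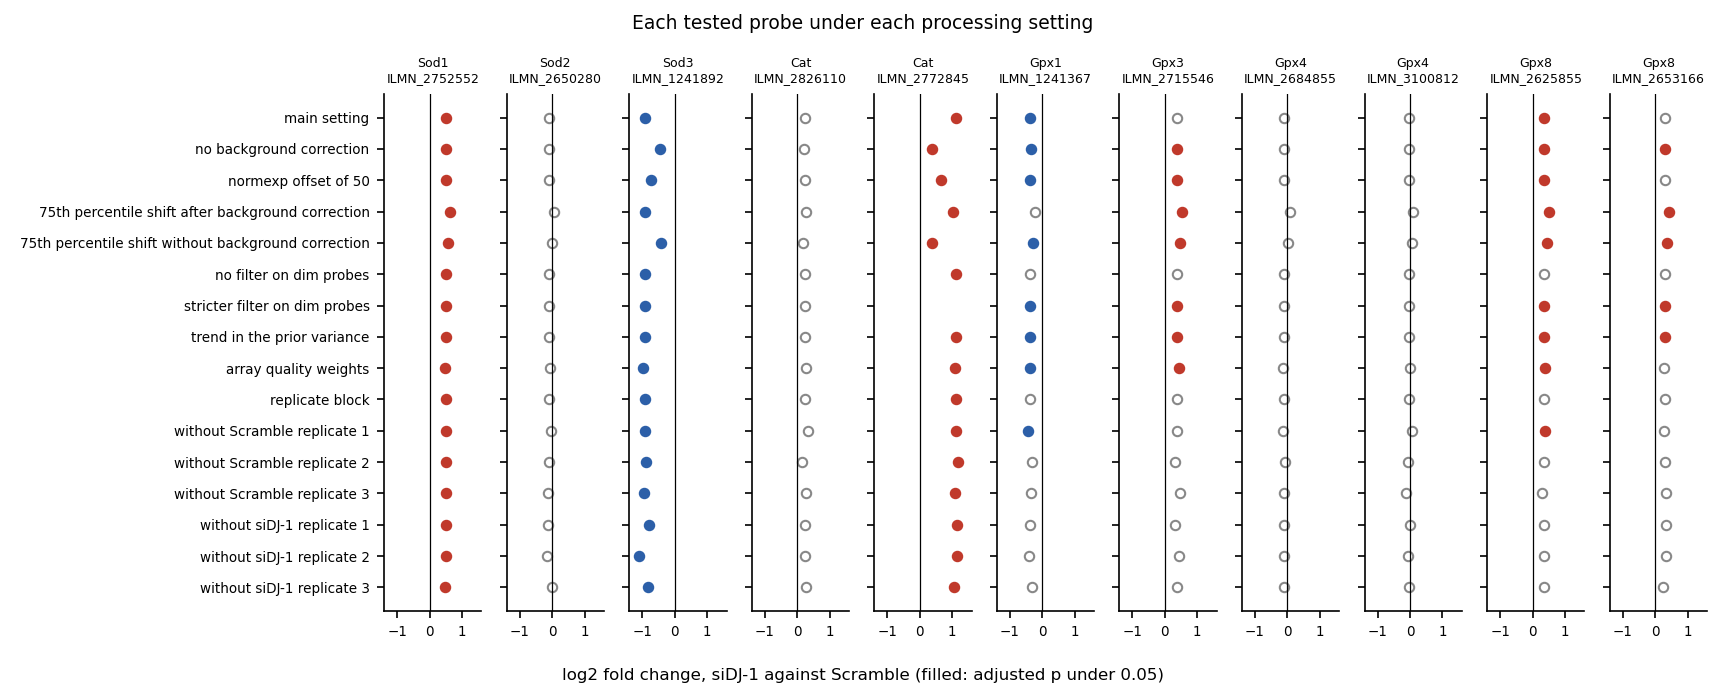
Log2 fold change of each tested probe of the enzymes under the main processing setting and each alternative; filled points had an adjusted p under 0.05. Sod1 and Sod3 are filled in every line, the Cat probe ILMN_2772845 in each line where it was tested, and Gpx1, Gpx3 and Gpx8 in some lines only; the points of Sod3 and of that Cat probe move towards 0 without background correction.

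Averaged over its 2 listed probes before the fit, Gpx8 was called (0.32, adjusted p = 0.0273, limma), where 4202 of 12771 genes were. Each probe of the set was read on 18 to 52 beads per array. For the 10 probes detected on all arrays, the standard error over beads was 2.27% to 8.45% of the signal. The small number of arrays limits how precise these values are.

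Over the 6 arrays, the probes of other genes with the most similar centred profile were Ap3s1-ps1 and 5730601F06RIK for Sod1 (root mean square differences of 0.019 and 0.023 log2 units) and Tlcd3a and C1qtnf3 for Sod3 (0.059 and 0.077). For Gpx8 they were Unc119b and Cav1 (both 0.018), and for Gpx1 6430402L23RIK and Chrna1, a subunit of the muscle acetylcholine receptor (both 0.023). Each was chosen among 14701 or 14703 probes detected on all arrays.

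Related genes were read from lists of names. Over all tested probes 2957 were higher and 2430 lower of 17890, with a median log2 fold change of 0.046. Of the other glutathione peroxidases, Gpx2, Gpx5 and Gpx6 had 0 tested probes. Of 8 tested probes in a list for the metal supply of the dismutases, 4 were higher and 1 was lower, with a median of 0.32. Slc39a14, which carries manganese, had no tested probe, so that the supply of manganese was not measured. The copper importer Slc31a1 rose by 0.60 (adjusted p = 0.00901, limma), called under all 15 alternatives. Its relative Slc31a2 rose by 0.65 (adjusted p = 0.0285) and 1 of 2 tested probes of the copper pump Atp7a by 0.59 (adjusted p = 0.0467), called under 9 and 6 of 15 alternatives. The other Atp7a probe gave 0.29 (adjusted p = 0.475). The call of Slc31a2 was lost without scramble replicate 1 or 2 or siDJ-1 replicate 1 or 2 (0.49 to 0.71), and that of Atp7a without any 1 of the 6 arrays (0.43 to 0.69). Without background correction these rises were 0.32 and 0.33. The copper chaperone Atox1 fell by 0.46 (adjusted p = 0.0205), called under 12 of 15, and lost without scramble replicate 2 (-0.46) or siDJ-1 replicate 1 (-0.46) or 2 (-0.39). The median of this list lay between -0.006 and 0.42 over the alternatives.

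Selenocysteine is built into Gpx1, Gpx3 and Gpx4 but not into Gpx7 or Gpx8. Of 14 tested probes for its synthesis and supply, 1 was higher and 1 was lower, with a median of 0.013. The higher one was Eefsec, the elongation factor for selenocysteine, which was detected on 0 of 3 scramble arrays and on all 3 siDJ-1 arrays. It was tested only through the group in which it was high, so that its call is no support for a change. Its fitted change was 0.80 on the log2 scale (adjusted p = 0.0129, limma) and 0.26 without background correction. The selenium carrier Selenop fell by 0.63 on 1 of its 2 tested probes (adjusted p = 0.0108), and the other gave -0.35 (adjusted p = 0.105). Without background correction the fall of Selenop was -0.38.

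Of 8 tested probes in a list that pooled the supply and the breakdown of glutathione, 1 was higher and 2 were lower, with a median of -0.21. Gclc, the catalytic subunit of the enzyme that makes glutamylcysteine, fell by 0.77 (adjusted p = 0.0076, limma), and Chac1, which degrades glutathione, fell by 1.08 (adjusted p = 0.0031). Both were called under all 15 alternatives, and the value of Gclc was -0.28 without background correction. Slc3a2, the heavy chain of the cystine transporter, rose by 0.83 (adjusted p = 0.0391), called under 9 of 15 and lost without scramble replicate 2 (0.84) or 3 (0.64) or siDJ-1 replicate 1 (0.82) or 3 (0.68).

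Peroxiredoxins also reduce peroxides, with electrons from thioredoxins. The list of these families also held Srxn1, Txnip, glutaredoxins and thioredoxin reductases. Of its 22 tested probes 3 were higher and 3 lower, with a median of -0.011. Both tested probes of Txnip, which binds and inhibits thioredoxin, rose, by 1.97 and 1.81 (adjusted p = 0.00299 and 0.00268, limma), under all 15 alternatives. Prdx5 rose by 0.36 on 1 of 2 tested probes (adjusted p = 0.0244; the other gave 0.14, adjusted p = 0.294), called under 8 of 15 and lost without any 1 array but scramble replicate 1 (0.34 to 0.37). Srxn1, which repairs overoxidized peroxiredoxins, was called lower on 1 of 3 tested probes, which was detected on 3 scramble and 2 siDJ-1 arrays. That probe met the filter only through the group in which it was high, so that its call is no support for a change. Its fitted change was -1.07 on the log2 scale (adjusted p = 0.0125, limma) and -0.37 without background correction. The Srxn1 probes detected on all arrays gave -0.42 and -0.48 (adjusted p = 0.122 and 0.0976). Prdx1 on 1 of 2 tested probes and Prdx3 fell by 0.35 each (adjusted p = 0.0295 and 0.042), called under 5 and 6 of 15 alternatives, and the other Prdx1 probe gave -0.13 (adjusted p = 0.754). Both calls were lost without any 1 of the 6 arrays, with values from -0.39 to -0.32 for Prdx1 and from -0.40 to -0.29 for Prdx3. Shifted to the 75th percentile, background-corrected arrays put Prdx1 at -0.18.

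Of 28 probes for enzymes that make superoxide or peroxide, 18 were detected on no array and 6 were tested, 1 of them higher and 0 lower at an adjusted p under 0.05, with a median of 0.35. This was Ero1b, an oxidase of the endoplasmic reticulum that gives off peroxide, detected on 1 scramble and 3 siDJ-1 arrays. It was tested only through the group in which it was high, so that its call is no support for a change. Its fitted change was 1.22 on the log2 scale (adjusted p = 0.00797, limma) and 0.42 without background correction. At an unadjusted p under 0.05, 2 of the 6 were higher and 0 lower, beside 4220 higher and 3439 lower of all 17890 tested probes. The superoxide-forming oxidase Nox4 gave -0.13 (adjusted p = 0.554), and 0.015 without scramble replicate 3. For peroxisomes, where catalase resides, 5 of 30 tested probes were higher and 1 was lower, with a median of 0.16. The assembly factor Pex6 (0.74 on the more changed of 2 called probes, adjusted p = 0.00791) and 1 of 4 tested probes of the membrane transporter Abcd3 (0.75, adjusted p = 0.0172) rose, and Pex11a fell by 0.78 on 1 of 4 tested probes (adjusted p = 0.0142). Without siDJ-1 replicate 1 or 3 the calls of Abcd3 (0.64 and 0.69) and Pex11a (-0.73 and -0.71) were lost, and that of Abcd3 also without scramble replicate 3 (0.69). Without background correction Abcd3 was at 0.34 and Pex11a at -0.33.

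NRF2, encoded by Nfe2l2, is a transcription factor that drives many antioxidant genes and is held down by Keap1. Of 14 tested probes for its regulators and other targets, 5 were higher and 2 were lower, with a median of 0.32. Over the alternatives 3 to 6 were higher and 0 to 2 lower, and the median ran from 0.099 to 0.36. The list pooled Keap1 with NRF2 itself, its partners and targets, and both probes called lower were those of Keap1. Its counts and median therefore do not measure the activity of NRF2, which was not tested. Maff, a partner of NRF2 in DNA binding, rose by 1.22 (adjusted p = 0.00374, limma), Nfe2l2 by 0.73 (adjusted p = 0.00918) and the epoxide hydrolase Ephx1 by 0.67 (adjusted p = 0.00986), each called under all 15 alternatives. On 2 of 4 tested probes Keap1 fell (-0.46 and -0.42, adjusted p = 0.018 and 0.0364), called under 12 and 8 of 15. The first call was lost without scramble replicate 3 (-0.44) or siDJ-1 replicate 1 (-0.49) or 3 (-0.40), and the second without any 1 array but scramble replicate 3 (-0.48 to -0.37). Maff was at 0.80 without background correction. The target Nqo1, named outside the rule for the list after its value was seen, gave 0.099 (adjusted p = 0.712).

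**Figure D4:**
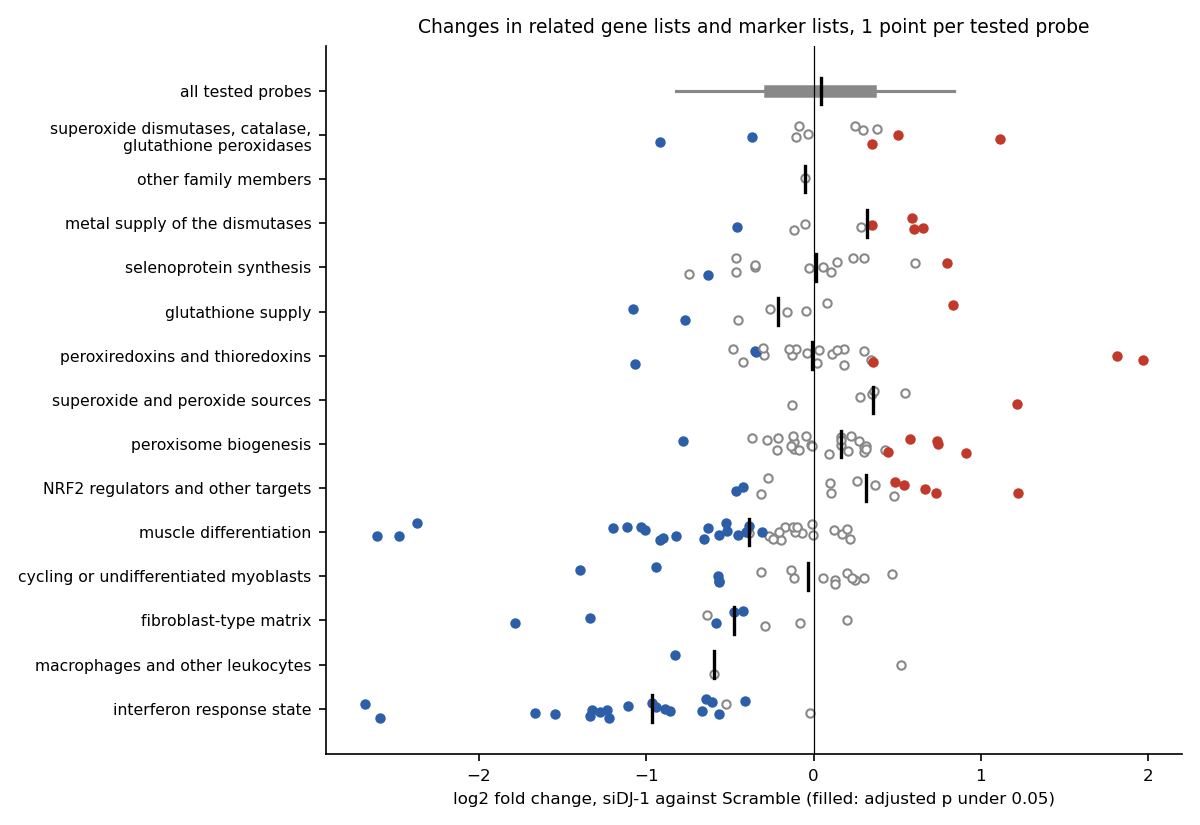
Log2 fold change of each tested probe of the enzymes and of the related and marker lists (points, filled at an adjusted p under 0.05), with the median of each list as a black line; for all tested probes the thick bar spans the middle 50% and the thin bar the 5th to 95th percentile. Muscle and interferon markers lie mostly below 0, with medians of -0.39 and -0.96.

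Markers of the state of the cells moved with the same contrast. Of 38 probes for muscle differentiation, 36 were detected on all arrays, so that markers of the labelled myotubes were present. Acta1 was the brightest over both groups together. On the scramble arrays alone its mean log2 signal (15.295) lay below that of the Mylpf probe ILMN_2977331 (15.383). At an adjusted p under 0.05 (limma), 0 of 37 tested probes were higher and 19 were lower, with a median of -0.39. At an unadjusted p under 0.05, 0 were higher and 20 were lower, beside 4220 higher and 3439 lower of all 17890 tested probes. Over the alternatives 11 to 23 of the muscle probes were called lower and 0 to 2 higher, and their median ran from -0.44 to -0.12. Their summed normalized signal was 613700, 602400 and 596200 for scramble against 496700, 516300 and 465000 for siDJ-1 replicates 1 to 3. The 3 probes of the muscle transcription factor Mef2c with the largest falls gave log2 fold changes of -2.61, -2.48 and -2.37 (adjusted p = 0.00277, 0.00308 and 0.00277). The part of this in the changes of the enzymes was not tested, and fewer myotubes and less RNA per cell cannot be told apart in such bulk samples.

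Of 16 tested probes for cycling or undifferentiated myoblasts, 0 were higher and 5 lower (limma), with a median of -0.032, and Pax7 was not detected. At an unadjusted p under 0.05, 3 were higher and 5 lower, beside 4220 higher and 3439 lower of all 17890 tested probes. The summed normalized signal of this list was 9684, 10920 and 10000 for scramble against 8830, 9885 and 9017 for siDJ-1 replicates 1 to 3, with Cdk1 as the brightest. Id3, an inhibitor of differentiation factors, fell by 1.40 (adjusted p = 0.00494, limma; -0.70 without background correction), and the replication genes Mcm5 and Pcna fell (-0.94 and -0.57, adjusted p = 0.0102 and 0.00916). Fibroblast-type matrix genes had 5 of 9 tested probes lower, with a median of -0.475 and summed normalized signals of 33500, 31840 and 33690 against 23090, 24870 and 23650. Both tested probes of the matrix proteoglycan Dcn fell (-1.79 and -1.34, adjusted p = 0.0058 and 0.00598), Col3a1 was the brightest of the list, and Lum and Thy1 were not detected. The receptor Pdgfra fell by 0.58 (adjusted p = 0.0493), a call lost without any 1 array but siDJ-1 replicate 2 (-0.62 to -0.41). The part of these markers in the changes of the enzymes was not tested.

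Leukocyte markers had 3 tested probes, 1 of them lower, with a median of -0.59 and Cd14 as the brightest, and Ptprc, Csf1r, Itgam and Tyrobp were not detected on any array. The probe called was that of the lysozyme Lyz1, detected on 3 scramble arrays and 1 siDJ-1 array. It too was tested only through the group in which it was high, and its call is no support for a change. Its fitted change was -0.83 (adjusted p = 0.0162, limma), and it lost its call without siDJ-1 replicate 1 (-0.77) or 3 (-0.69). Without background correction Lyz1 was at -0.27. Cd14 gave -0.59 (adjusted p = 0.0626) and was called under 8 of 15 alternatives, among them without background correction (-0.29) and without siDJ-1 replicate 2 (-0.78). The list's summed normalized signal was 225.1, 295.9 and 248.8 for scramble against 178.6, 225.9 and 169.5 for siDJ-1 replicates 1 to 3. Of 21 tested probes for an interferon response state, 19 were lower, with a median of -0.96, and Ifit3 was the brightest. Their summed normalized signal was 36510, 44460 and 38990 for scramble against 18110, 21870 and 16640 for siDJ-1 replicates 1 to 3. Cxcl10, Rsad2 and Isg15 fell, with log2 fold changes of -2.68, -2.59 and -1.67 (adjusted p = 0.00224, 0.00305 and 0.00317, limma), and Cxcl10 was at -1.69 without background correction. The part of these states in the changes of the enzymes was not tested.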

How the data were processed

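RNA of C2C12 myotubes, 3 samples with scramble siRNA and 3 with DJ-1 siRNA, was labelled and hybridized by the authors to 1 Illumina Mouse WG-6 BeadChip. The authors deposited, per probe and array, the mean signal intensity over beads with its standard error, neither normalized nor background-subtracted. The number of beads and a detection p-value against negative controls were deposited as well. Per the file header the GSGX version was 1.9.0, and no genome build is named.

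Signals were background-corrected (normexp, background inferred from the detection p-values, offset 16), quantile normalized and taken to log2 with neqc of limma 3.58.1 in R 4.3.3. A probe was kept if its detection p was under 0.05 on 3 or more of the 6 arrays, and the 17890 kept were fitted by lmFit and eBayes without covariates. Benjamini-Hochberg adjustment ran over all 17890, and adjusted p under 0.05 was called. Differences between probes of 1 gene were fitted in the same way on within-array differences. Intervals are 95% confidence intervals of limma's moderated test. Probes kept the name of the file unless RefSeq's gene table (GRCm38.p6) held their gene number or accession, as for 32345 of 45281. No 2 arrays held the same values.

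Median signal per array was 162, 167 and 153.5 (scramble) and 161, 167 and 152 (siDJ-1), and 16985 to 18857 probes per array were detected.

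The genes of the set and all lists were chosen with earlier results of these data known. In each list the called probes with the 3 largest rises and falls were to be named, with the brightest probe where under 2 were called, and for each called member the 2 probes with the smallest root mean square difference of centred log2 values. For Cat these were left out after the values were seen, since its called probe was undetected in scramble myotubes. Alternatives were leaving out background correction (with signals under 1 set to 1), scaling by the 75th percentile in place of quantiles (both with background correction and on uncorrected signals), testing every probe, testing those with p under 0.01 for detection on each array, a trend in the prior variance, array weights, the replicate number as a block, the mean of the probes of a gene, each array left out, and an offset of 50, which was added after the data had been seen.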

Additional observations from a re-analysis of the deposited data

How the results depend on the processing

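The falls of Park7 and Sod3 and the rise of Sod1 were called under every alternative that gave them a value, and so was the dim Cat probe, which the stricter filter left out. Of the set, 5 probes were called (3 higher, 2 lower). The count was 3 without a filter and with the replicate block. It was 3 to 5 with each array left out (2 to 3 higher, 1 to 2 lower). Called higher were 5 without background correction, with either 75th percentile shift and with the trend in the prior variance. Called lower was 1, Sod3, when background-corrected arrays were shifted to the 75th percentile, without a filter and with the replicate block. Over all tested probes, 3519 were called without a filter (1908 higher, 1611 lower), with 45281 tested, and 2564 to 5290 with each array left out (1392 to 2870 higher, 1172 to 2420 lower), where fewer arrays were compared. The lowest of these was without siDJ-1 replicate 1, and 2718 were called without siDJ-1 replicate 3.

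Among the named probes and pairs of probes, signs turned for uncalled values only. When background-corrected arrays were shifted to the 75th percentile, Sod2 was at 0.054, Gpx4 ILMN_2684855 at 0.085, Gpx4 ILMN_3100812 at 0.105 and Ccs at 0.073. With the shift of uncorrected arrays these were 0.028 and 0.048 for Gpx4 and 0.019 for Ccs. With each array left out, Gpx4 ILMN_3100812 ran from -0.11 to 0.066, the difference of the Gpx4 probes from -0.015 to 0.21, that of the Gpx8 probes from -0.025 to 0.13 and Nox4 from -0.22 to 0.015. Over all alternatives, list medians ran from -0.098 to 0.14 for selenocysteine and from -0.13 to 0.072 for cycling myoblasts. For peroxiredoxins, thioredoxins and the genes listed with them the median ran from -0.10 to 0.066. The sign of these medians was thus not fixed. Peroxisome probes called higher numbered 1 to 7, metal supply probes 1 to 4, and fibroblast-type probes called lower 2 to 6. Medians ran from 0.063 to 0.22 for peroxisomes and from 0.068 to 0.43 for superoxide and peroxide sources. They ran from -0.40 to -0.04 for glutathione supply and breakdown and from -0.78 to -0.028 for leukocytes. The cause was not tested.

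The labels give arrays of the 2 groups a number in common and nothing more. Deviations from the group means correlated across probes at 0.054, 0.047 and 0.02 for arrays of the same number, each the highest for its array, which is a hint from the data and not from the design. With the replicate block 4350 probes were called, 4061 of them shared with the fit without it, and Gpx1 (-0.37, adjusted p = 0.0685) and Gpx8 ILMN_2625855 (0.35, adjusted p = 0.0702) lost their calls. Dim probes, such as those of Sod3 and Cat, depend on the background correction, and 3 arrays per group limit the precision of every value.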
